A study of Mus musculus with 6 samples.

Results

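MS-5 cells are an established mouse line of bone marrow stroma, used as a feeder layer for blood cells. The account covers the 3 libraries of MS-5 cells cultured alone, of 6 libraries in the series, and describes this resting transcriptome by its levels, with no comparison against the co-culture with SKM-1, a human AML line. The 3 libraries were chosen by their labels and are named replicates 1, 2 and 3. The medium was RPMI 1640 with 15% FBS, to which penicillin/streptomycin (100 U/ml) and glutamine (2 mmol/L) had been added. MS-5 is a single established line, no treatment or genetic change is labelled, and the labels do not say that the replicates were separate cultures, so the spread between them may be technical. Levels are in TPM, a measure corrected for transcript length and library total, so that levels can be set side by side between genes. Values in a row of 3 follow the order of replicates 1, 2 and 3, and errors are SD over the 3 libraries.

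Stromal cells of the marrow feed blood cells through secreted and membrane-bound factors. Among these, CXCL12 retains haematopoietic stem cells through its receptor CXCR4, KIT ligand keeps them alive, and CSF1 drives macrophage growth. The same cells lay down the matrix of collagens, fibronectin and proteoglycans to which blood cells adhere. Fibroblasts can turn to bone, fat or cartilage, each under its own transcription factors.

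Several of the genes described below produce more than 1 protein from the same locus, and the sequences that separate these products are shown first. All are from GENCODE M21 (GRCm38), 5′ to 3′ on the coding strand. For Cxcl12 (chr6:117168535-117181367, plus strand), lower case is the end of the coding sequence shared by its 3 main transcripts and capitals mark the bases past it, stop codon included.
Cxcl12-202: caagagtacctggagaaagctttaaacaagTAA
Cxcl12-203: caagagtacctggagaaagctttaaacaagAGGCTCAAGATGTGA
Cxcl12-201: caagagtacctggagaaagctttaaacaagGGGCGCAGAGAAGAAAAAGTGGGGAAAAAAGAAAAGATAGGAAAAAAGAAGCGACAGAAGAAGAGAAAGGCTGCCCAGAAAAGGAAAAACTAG
These transcripts encode proteins of 89, 93 and 119 residues, known as the alpha, beta and gamma forms. The long tail of the gamma form is rich in basic residues and binds heparan sulphate, which holds the chemokine near the cell that made it.

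For Kitl, the capitals mark an exon of 84 bases (chr10:100080857-100080940, plus strand) that carries a site for proteolytic release. With it, KIT ligand is readily shed, and without it most of the protein stays on the membrane.
Kitl exon: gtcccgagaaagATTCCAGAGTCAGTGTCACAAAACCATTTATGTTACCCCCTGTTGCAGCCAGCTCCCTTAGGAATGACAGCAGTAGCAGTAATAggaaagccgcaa
For Fn1, which lies on the minus strand of chromosome 1, the capitals mark the alternative exons known as EIIIA (270 bases, chr1:71603660-71603929) and EIIIB (273 bases, chr1:71613763-71614035). Both encode a whole fibronectin repeat, and both are typical of fibronectin made by cells rather than of the form in plasma.
Fn1 EIIIA: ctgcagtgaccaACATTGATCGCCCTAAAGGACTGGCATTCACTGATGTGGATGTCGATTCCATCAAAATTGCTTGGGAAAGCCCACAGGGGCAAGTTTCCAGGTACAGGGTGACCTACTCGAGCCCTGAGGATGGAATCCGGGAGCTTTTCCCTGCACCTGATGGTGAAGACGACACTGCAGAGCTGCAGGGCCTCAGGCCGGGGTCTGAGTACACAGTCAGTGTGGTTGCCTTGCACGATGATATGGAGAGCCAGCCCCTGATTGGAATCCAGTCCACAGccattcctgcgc
Fn1 EIIIB: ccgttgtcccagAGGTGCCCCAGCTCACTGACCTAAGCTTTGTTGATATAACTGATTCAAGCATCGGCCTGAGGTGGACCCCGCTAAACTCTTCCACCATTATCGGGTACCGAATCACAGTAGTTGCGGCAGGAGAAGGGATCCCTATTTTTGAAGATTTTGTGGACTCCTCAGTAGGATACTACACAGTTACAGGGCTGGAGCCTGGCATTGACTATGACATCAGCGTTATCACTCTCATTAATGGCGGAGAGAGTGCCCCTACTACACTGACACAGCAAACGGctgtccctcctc
For Cdkn2a, capitals mark the 2 alternative first coding exons on the minus strand of chromosome 4, joined to the exon they share in lower case. The first (chr4:89294334-89294523) opens ARF, which stabilises p53, and the second (chr4:89281986-89282111) opens INK4A, which blocks CDK4 and CDK6.
Cdkn2a-202: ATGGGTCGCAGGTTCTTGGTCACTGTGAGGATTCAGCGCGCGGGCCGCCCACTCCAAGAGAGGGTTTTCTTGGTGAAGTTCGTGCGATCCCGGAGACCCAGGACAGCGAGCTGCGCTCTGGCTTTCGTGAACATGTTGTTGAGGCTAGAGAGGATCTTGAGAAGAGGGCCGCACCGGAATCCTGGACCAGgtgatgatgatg
Cdkn2a-201: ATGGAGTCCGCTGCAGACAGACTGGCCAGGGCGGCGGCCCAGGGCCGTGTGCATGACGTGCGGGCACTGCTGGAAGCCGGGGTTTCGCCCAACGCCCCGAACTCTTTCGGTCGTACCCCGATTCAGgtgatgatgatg

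Total estimated counts were 27182453, 27134267 and 23978881. Replicate 2 stood apart from the others. Across 11649 genes at a mean of at least 1 TPM, Pearson's r of log2(TPM + 0.5) was 0.983 between replicates 1 and 3, but 0.943 and 0.946 for the pairs that include replicate 2. These are correlations across genes, which are not independent replicates. Replicate 2 held counts on 65170 transcripts, against 52387 in replicate 1 and 51533 in replicate 3. Transcripts annotated as retained introns took 2.65%, 5.25% and 2.47% of the TPM. The excess of replicate 2 rose with transcript length, from a median of 1.03 times the mean of the other libraries for genes whose dominant transcript is at most 1000 bases long to 2.18 times above 6000 bases, whereas replicate 3 over replicate 1 stayed between 0.916 and 0.982. The part of these features in the levels below was not tested, and values are therefore given for each library. In each pair of libraries, 54.7% to 82.4% of genes with at least 100 counts differed by more than the 95% limit of sampling noise, which does not show that the libraries came from separate cultures.

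**Figure D1:**
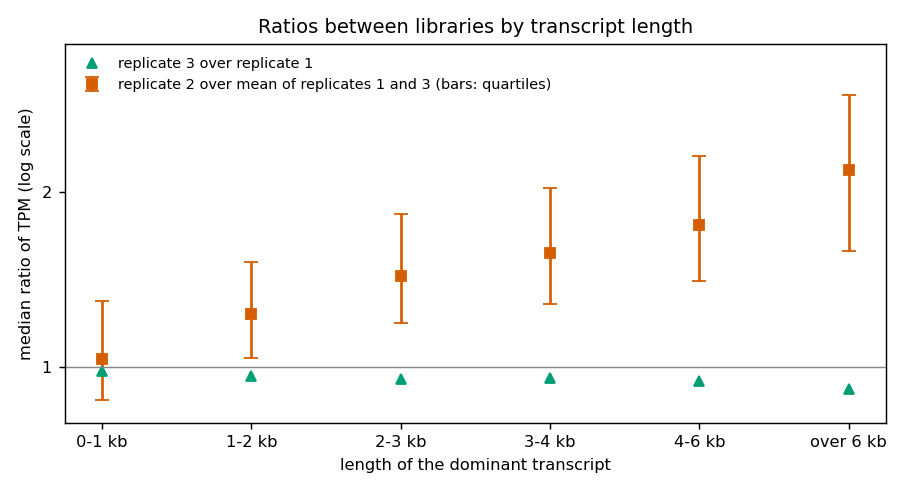
Median ratio of TPM (log scale) by length of the dominant transcript of a gene, for protein-coding genes outside the mitochondrial chromosome at a mean of at least 10 TPM. Squares are replicate 2 over the mean of replicates 1 and 3, with quartiles as bars, and triangles are replicate 3 over replicate 1; the squares climb from 1.03 to 2.18 and the triangles stay near 1.

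Of 35968 genes of all types, 10837 were at 1 TPM or more in every library. Of 21951 protein-coding genes, 10453 (47.6%) were at 1 TPM or more in every library, at a median of 19.9 TPM. Each count of listed genes below is to be set against this 47.6%. A further 4828 had no count in any library. The TPM was concentrated in few genes: ordered by mean level, 155 genes held 50% of it, with 124, 286 and 110 genes in the single libraries. Genes of the mitochondrial chromosome, which encode subunits of the respiratory chain and ATP synthase, took 17.7% ± 3.99 of the TPM (18.1%, 13.6% and 21.5%), and genes of ribosomal proteins took 13.4% ± 2.10. The ribosomal share covers 84 protein-coding genes and leaves out entries with a pseudogene name, such as Rps2-ps10 and Rps12-ps3. Processed pseudogenes of all kinds took 6.66% ± 0.794.

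The 25 highest genes by mean included 11 mitochondrial genes, led by mt-Co2, a subunit of cytochrome c oxidase, at 26655, 15829 and 31754 TPM. Next by mean were mt-Atp6, mt-Cytb, mt-Co1 and mt-Co3. In replicate 2, mt-Atp8 (18328 TPM) and mt-Atp6 (17500 TPM) stood above mt-Co2. Among protein-coding genes outside the mitochondrial chromosome, the leaders by mean were the ferritin light chain Ftl1 (9758, 5492 and 7793 TPM), the elongation factor Eef1a1 (8317, 6762 and 7915 TPM) and the ferritin heavy chain Fth1 (7813, 6317 and 8353 TPM). Both ferritin chains, which store iron, thus stood among the highest nuclear genes in every library. S100a4, a calcium-binding protein long used as a fibroblast marker, was nearly constant at 7489, 7438 and 7451 TPM, with an SD of 0.359% of its mean. The galectin Lgals1, a secreted lectin, was at 7541, 5306 and 6752 TPM. Ribosomal protein genes among the 25 were Rpl41, Rplp1, Rplp0 and Rps15, between 3348 and 7153 TPM in single libraries, and the protein-coding entry Gm10260 was at 4252, 3270 and 4032 TPM.

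Several entries near the top are annotated as pseudogenes or carry a pseudogene name, and may share reads with other genes, which was not examined. Gm29216 and Gm28438, unprocessed pseudogenes on chromosome 1, were at 8497, 7547 and 13007 TPM and at 5459, 3393 and 4728 TPM. Rps2-ps10 had 7218, 3798 and 5811 TPM, whereas Rps2 itself had 28.5, 27.1 and 18.6 TPM. In the same way Rps12-ps3 had 7438, 4886 and 7111 TPM against 281, 185 and 189 TPM for Rps12. The split between such pairs is uncertain. Among nuclear genes with names of their own that are not ribosomal, the next were the tubulin Tuba1b, the intermediate filament gene Vim (4487, 2805 and 2983 TPM), the matrix glycoprotein Spp1 and the surface protein Ly6e (2988, 3263 and 2948 TPM).

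All 5 stromal markers were expressed in every library. Cxcl12 was at 338, 1171 and 779 TPM, Fn1 (fibronectin; chr1:71585520-71653200) at 447, 1358 and 451 TPM, and Col1a1 (chain of collagen I; chr11:94936224-94953042) at 531, 453 and 394 TPM. Col1a1 was the exception to the excess of replicate 2. The PDGF receptors, which mark mesenchymal cells, were lower: Pdgfrb was at 32.1, 62.8 and 35.5 TPM and Pdgfra at 24.2, 62.4 and 28.3 TPM. Pdgfrb over Pdgfra was 1.20 ± 0.169 within a library.

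Of 18 mesenchymal surface markers, 9 were at 1 TPM or more in every library. Ly6a, which encodes Sca-1, was at 674, 693 and 681 TPM, the integrin chain Itgb1 at 164, 261 and 172 TPM and Eng, a co-receptor for TGF-beta, at 59.9, 69.8 and 50.2 TPM. Vcam1, which holds blood cells through an integrin, was at 5.42, 10.6 and 5.65 TPM. Several markers used to sort marrow stroma were nearly silent. Lepr had 0.0132, 0.277 and 0 TPM, Nes had 0.0220, 0.141 and 0.00813 TPM, and Pdpn had none in any library. Thy1 had 0.467, 5.24 and 0.926 TPM, but transcripts annotated as protein-coding made up only 4.68% of its mean.

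Markers of other cell types were mostly at or near 0. None of 13 endothelial markers reached 1 TPM in any library, and their summed level was 1.05 to 2.13 TPM. Of 22 leukocyte markers, 3 were at 1 TPM or more in every library, and the summed level was 42.7 to 82.6 TPM. These were Lyz2 (lysozyme; 16.0, 31.8 and 28.1 TPM), Cd68 (11.2, 31.7 and 19.2 TPM) and Cd14 (13, 13.3 and 10.2 TPM), while Ptprc, the pan-leukocyte gene, stayed between 0.0144 and 0.129 TPM. Of 13 erythroid and megakaryocyte markers, Itga2b, Epor and Hba-a1 passed 1 TPM in every library, at a summed level of 16.9 to 41.3 TPM for the list, but only 14.3% of the mean of Itga2b was on protein-coding transcripts. Krt19 was the single epithelial marker of 10 to pass, and Mbp and S100b passed among 9 neural and glial markers.

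Of 118 niche factors, 52 were at 1 TPM or more in every library and 59 were below it in all, with a median of 0.742 TPM over the list against 1.08 TPM over all protein-coding genes. Chemokines were led by Cxcl12, 762.5 ± 416.5 TPM, followed by the monocyte attractants Ccl2 (329, 406 and 221 TPM) and Ccl7 (293, 341 and 186 TPM). Ccl2 and Ccl7 came closest to Cxcl12 in replicate 1, where Cxcl12 was lowest. The tethered chemokine Cx3cl1 was at 32.8, 72 and 48.6 TPM, and the neutrophil attractants Cxcl1 and Cxcl5 at 10.9, 50.1 and 13.2 TPM and at 8.20, 24.5 and 10.5 TPM. Ccl5, Cxcl2, Cxcl16, Cxcl13, Ccl19 and Ccl20 remained under 1 TPM.

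Among 24 cytokines and growth factors for blood cells, 8 passed in every library. Csf1 was the highest (96.8, 269 and 90.2 TPM). The ligand of the FLT3 receptor, Flt3l, had 10.6, 39.3 and 11.8 TPM, of which 33.4% was on protein-coding transcripts. Kitl had 12.6, 26.3 and 18.2 TPM, so that Cxcl12 exceeded it by 26.9, 44.6 and 42.7 times. The lymphoid cytokines Il7 (11.3, 21.4 and 17.3 TPM) and Il15 (4.68, 11.5 and 8.10 TPM) were also present. Il3, Csf2, Epo and Tnfsf11, the RANK ligand, had no count in any library, which allows up to 3 counts, or 0.111 to 0.126 CPM, per gene and library. Thpo was at 0.298, 3.34 and 0.517 TPM and passed 1 TPM in replicate 2 only.

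**Figure D2:**
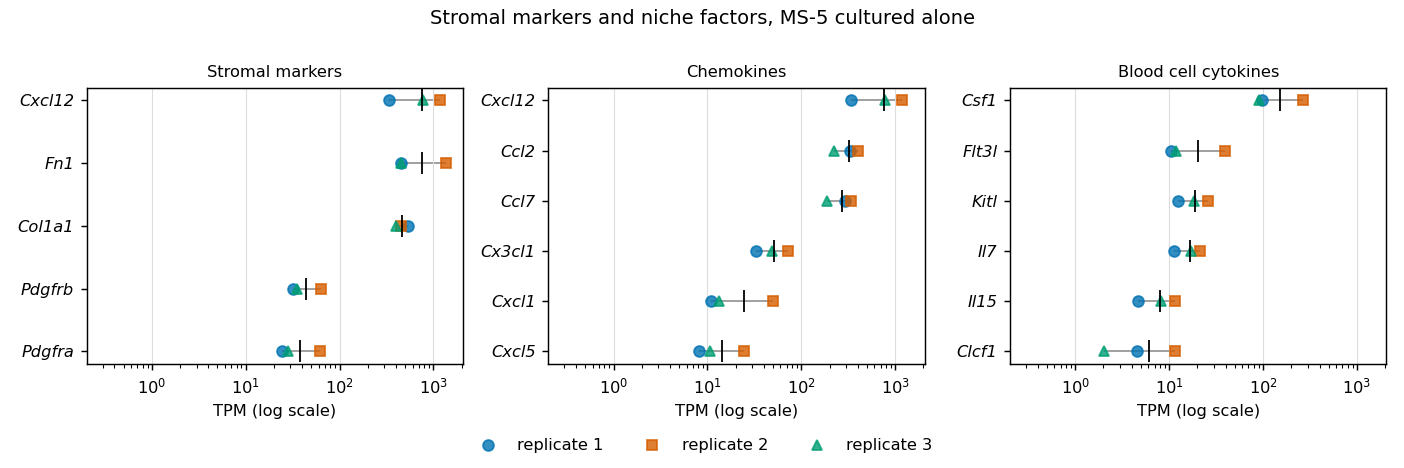
TPM (log scale) of the 5 stromal markers and of the 6 highest chemokines and 6 highest blood cell cytokines in MS-5 cultured alone. Each symbol is 1 library, the vertical tick is the mean of 3 and the line spans the range; Cxcl12 runs from 338 to 1171 TPM and Kitl from 12.6 to 26.3 TPM.

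Of 35 angiocrine and other growth factors, 22 passed in every library. The highest were progranulin, Grn (146, 228 and 176 TPM), Fgf7, a factor for epithelial cells (162, 224 and 148 TPM), and Angptl2 (127, 186 and 106 TPM). Angpt1, the agonist of the TIE2 receptor, was at 41.5, 118 and 69.5 TPM, and Vegfa and Vegfb at 35.1, 105 and 22.8 TPM and at 59.8, 81.0 and 70.9 TPM. Igf1 was at 35.6, 57.0 and 52.2 TPM.

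Of 45 ligands and antagonists of the TGF-beta, BMP, Wnt and Notch pathways, 14 passed. Fstl1, a secreted glycoprotein, led with 155, 408 and 185 TPM. Tgfb1 was at 61.8, 82.9 and 65.2 TPM and exceeded Tgfb2 (6.49, 14.6 and 8.34 TPM) and Tgfb3 (6.51, 15.7 and 8.06 TPM) in every library. Among Wnt ligands, Wnt4 had 4.82, 6.09 and 4.55 TPM, whereas Wnt5a, Wnt2 and Wnt11 had no count. Bmp2 and the BMP antagonist Nog also had none, and the Notch ligand Jag1 was at 0.804, 3.37 and 1.14 TPM.

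Of 203 matrix genes, 108 (53.2%) were at 1 TPM or more in every library, against 47.6% of all protein-coding genes. At 100 TPM or more in every library were 26 of the 203, against 1014 of 21924 protein-coding genes counted by symbol. The median over the list was 4.74 TPM, against 1.08 TPM over all protein-coding genes. Among fibrillar collagens, Col1a1 was followed by Col5a2 (93.3, 194 and 77.7 TPM), Col3a1 (55.6, 125 and 56.4 TPM) and Col5a1 (24.2, 78.2 and 17.7 TPM). Col1a2, which encodes the partner chain of collagen I, was at only 15.9, 28.8 and 7.09 TPM, so that Col1a1 exceeded it by 33.3, 15.7 and 55.6 times. The levels of the 2 genes did not overlap between libraries, with 1904, 2435 and 763 counts behind Col1a2. The chains of collagen IV, Col4a1 and Col4a2, differed by a mean of 2.34 ± 0.252 times and those of collagen VI, Col6a1 and Col6a2, by 1.60 ± 0.0740 times.

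Other collagens were dominated by collagen VI, with Col6a1 at 141, 378 and 202 TPM, Col6a2 at 84.0, 246 and 129 TPM and Col6a3 at 95.2, 234 and 77.0 TPM. Of 23 basement membrane genes, 11 passed, among them Nid1 (122, 129 and 87.1 TPM), which links laminin to collagen IV, and Col4a1 (63.9, 221 and 71.9 TPM). The laminin chains were uneven: Lamb2, Lamb1 and Lamc1 lay between 22.4 and 91.5 TPM, Lama5 was at 11.9, 37.7 and 10.7 TPM, and Lama1 had no count.

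Glycoproteins were the most abundant role of the matrix. Spp1, osteopontin, was at 1983, 4617 and 3420 TPM, the antiangiogenic thrombospondin Thbs2 at 866, 2135 and 1093 TPM and Sparc, which binds collagen, at 839, 992 and 951 TPM. Next after Fn1 came the IGF-binding proteins Igfbp7 (256, 629 and 398 TPM) and Igfbp6 (560, 301 and 322 TPM), of which the second was highest in replicate 1. Tnc and Eln, elastin, stayed under 0.1 TPM.

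Among proteoglycans, Bgn (biglycan) was at 1158, 1458 and 1409 TPM and the syndecan Sdc1 at 218, 279 and 204 TPM. Dcn and Lum, small leucine-rich proteoglycans common in fibroblasts, were at most 0.00942 and 0.0208 TPM in any library. Of 21 enzymes that fold and crosslink collagen, 20 passed, with Pcolce at 914, 1135 and 968 TPM, the collagen chaperone Serpinh1 at 601, 603 and 516 TPM and lysyl oxidase, Lox, at 176, 367 and 256 TPM. Loxl2 was the exception, at 0.0596, 0.207 and 0.116 TPM. Of 36 proteases and inhibitors, 23 passed, led by Serpinf1 (829, 772 and 850 TPM) and by the cathepsin Ctsl (413, 650 and 448 TPM). The metalloproteases Mmp2 (72.4, 157 and 95 TPM) and Mmp14 (70.3, 156 and 65.2 TPM) stood below Timp2, which inhibits both (314, 369 and 305 TPM), in every library. Timp1, another metalloprotease inhibitor, was at 313, 181 and 259 TPM.

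**Figure D3:**
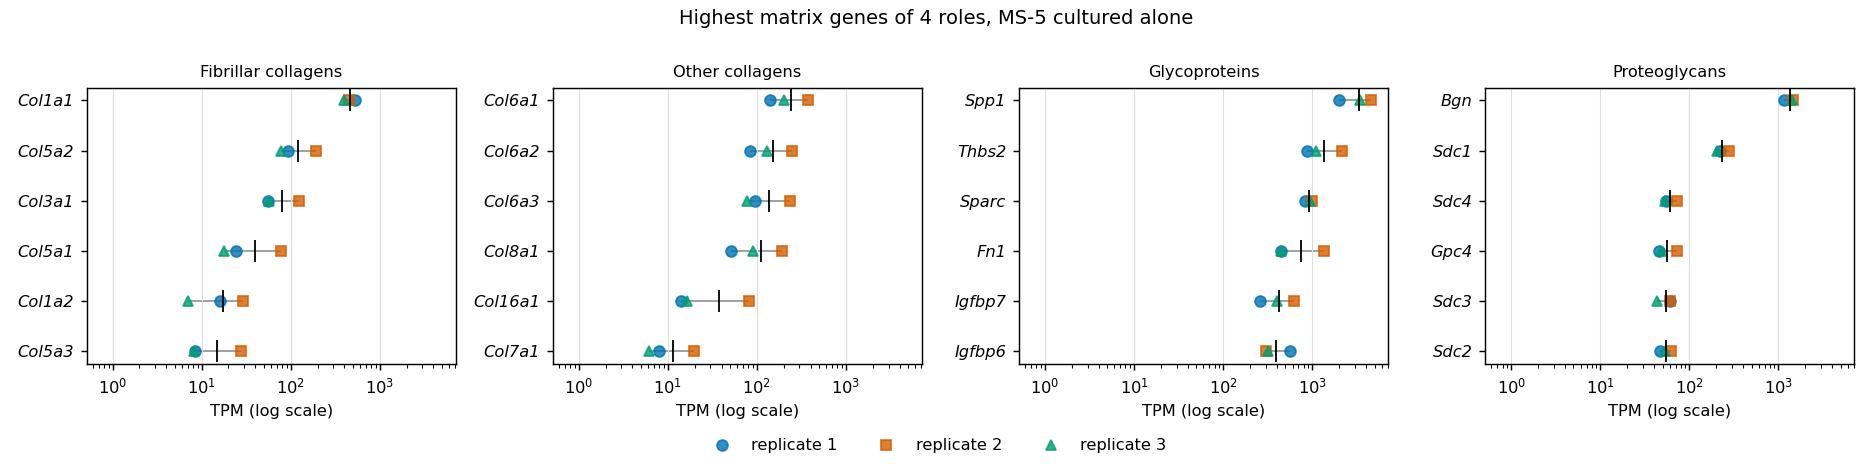
TPM (log scale) of the 6 highest genes of 4 matrix roles in MS-5 cultured alone. Symbols are libraries, the vertical tick is the mean of 3 and the line the range; Col1a2 lies more than 15 times below Col1a1 in each library, and Spp1 leads with 1983 to 4617 TPM.

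Of 215 receptors and surface proteins, 106 (49.3%) were at 1 TPM or more in every library, near the 47.6% of all protein-coding genes. The median over the list was 1.23 TPM, against 1.08 TPM over all protein-coding genes. Among 43 receptor tyrosine kinases, Axl, a receptor for GAS6, was the highest and varied little, at 295, 310 and 285 TPM. Ddr2, a receptor for fibrillar collagen, was at 71.0, 128 and 66.6 TPM, Fgfr1 at 36.1, 77.2 and 38.0 TPM and Met, the HGF receptor, at 21.3, 22.5 and 17.0 TPM. Kit, the receptor of KIT ligand, had no count, and Flt3 and Kdr stayed under 0.1 TPM.

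Of 14 TGF-beta and BMP receptors 11 passed, and of 25 Notch and Wnt receptors 17 passed. After Eng, Tgfbr2 had the highest mean of the first, at 29.1, 49.1 and 32.5 TPM. In the second, which includes hedgehog receptors, Gas1 (98.5, 127 and 114 TPM) and Smo (104, 80.3 and 84.2 TPM) led, with Fzd1 at 49.6, 62.7 and 53.0 TPM and Notch3 at 18.3, 44.5 and 18.6 TPM.

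Among 40 cytokine receptors, 23 passed. Tnfrsf12a, the TWEAK receptor, was at 154, 202 and 119 TPM, Tnfrsf1a, the main TNF receptor, at 102, 135 and 103 TPM and Il6st, the signalling chain shared by IL-6 family receptors, at 55.9, 110 and 70.3 TPM. Of 44 G protein-coupled receptors and their partners, 12 passed, led by the thrombin receptor F2r (96.6, 133 and 105 TPM). The CXCL12 receptors Cxcr4 and Ackr3 were at most 0.0666 and 0.0548 TPM in any library.

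Of 26 integrins, 11 passed. Itgb1, Itgb5 (110, 224 and 150 TPM) and Itga5 (56.3, 108 and 43.1 TPM), the last of which pairs with Itgb1 to bind fibronectin, led. Itgb7, known mainly from lymphocytes, was at 49.5, 18.3 and 17.8 TPM and thus highest in replicate 1. In the mixed list of Toll-like receptors, scavenger receptors and tetraspanins, 14 of 23 passed, with Cd63 at 923, 920 and 1136 TPM, Tlr2 at 32.6, 50.7 and 45.3 TPM and Tlr4 at 11.1, 15.0 and 10.9 TPM.

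Of 264 transcription factors, 161 (61.0%) were at 1 TPM or more in every library, against 47.6% of all protein-coding genes. The median over the list was 6.20 TPM, against 1.08 TPM over all protein-coding genes. Of 39 Hox genes, which record position along the body and limbs, 15 passed (38.5%, against the same 47.6%). By cluster, 5 of 11 passed in A, 1 of 10 in B, 7 of 9 in C and 2 of 9 in D, each a small number of genes. Hoxc10 (chr15:102966796-102971893) was the highest, at 50.4, 61.2 and 47.2 TPM. Hoxa10 (23.3, 43.8 and 28.8 TPM, 47.9% of the mean on protein-coding transcripts) and Hoxa9 (19.5, 45.5 and 21.7 TPM) led the A cluster and Hoxd8 (17.1, 15.4 and 15.2 TPM) the D cluster. Hoxd10, Hoxd11, Hoxd12, Hoxd13 and Hoxa13 had no count, whereas Hoxc13 was at 11.8, 19.1 and 9.999 TPM. Hoxa3, Hoxa5 and Hoxa6 lay under 1 TPM in replicates 1 and 3 but at 7.26 to 8.30 TPM in replicate 2.

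**Figure D4:**
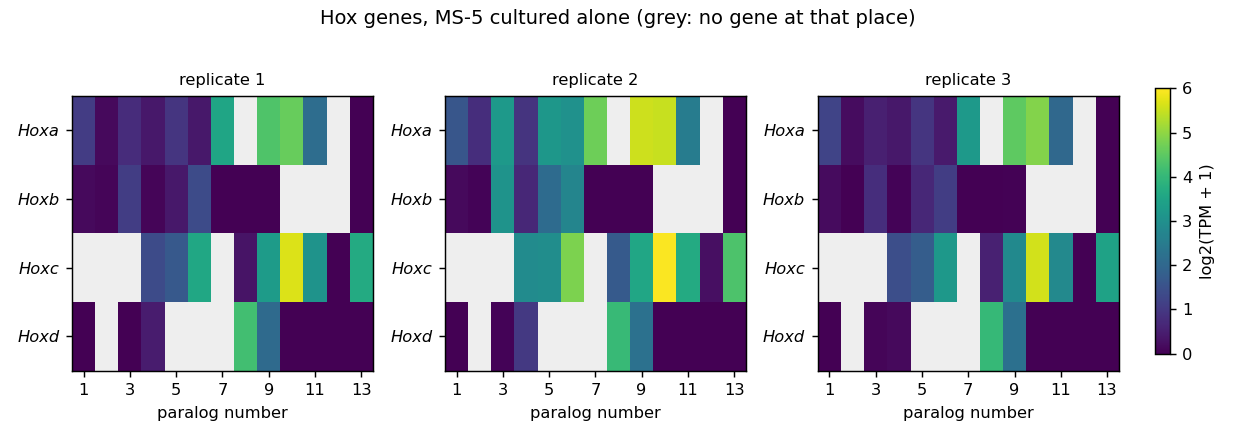
Level of the 39 Hox genes as log2(TPM + 1), by cluster (rows) and paralog number (columns), in each library of MS-5 cultured alone; grey marks places with no gene. Hoxc10 is the brightest square in every library, the B cluster is mostly dark, and Hoxa3, Hoxa5 and Hoxa6 are bright in replicate 2 only.

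Of 72 mesenchymal and limb factors, 30 passed. The inhibitors of bHLH factors Id1 (241, 231 and 161 TPM), Id3 and Id2 led, followed by Prrx1 (54.6, 97.4 and 63.6 TPM), a marker of limb and skull mesenchyme. The factors Snai1, Snai2, Zeb2 and Twist1, which hold cells in a mesenchymal state, lay between 17.0 and 48.9 TPM. Of limb factors, Pitx1, typical of the hindlimb, was at 1.56, 2.46 and 1.23 TPM, while Tbx4 had no count and Tbx5 was at most 0.0996 TPM.

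Among 36 skeletal and fat lineage factors, 23 passed. Pparg (51.5, 52.4 and 41.7 TPM) and Cebpa (27.6, 42.1 and 39.4 TPM), the factors that drive fat cell formation, exceeded Runx2 (16.0, 34.0 and 14.3 TPM), which drives bone formation, in every library. Of 117 signal-dependent factors 93 passed, with the stress factors Atf5 (237, 221 and 181 TPM) and Atf4 (197, 282 and 149 TPM) near the top. Egr1, an immediate early gene, was at 18.1, 343 and 23.7 TPM, and so depended on replicate 2 for its place.

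Of 16 adipocyte genes 12 passed, with Lpl, lipoprotein lipase, at 251, 1021 and 406 TPM (49.9% of its mean on protein-coding transcripts) and the fatty acid carrier Fabp4 at 86.1, 83.3 and 88.6 TPM, but the adipokine Adipoq was under 1 TPM in every library (0.996, 0.860 and 0.824 TPM). Among osteoblast genes, Spp1, Runx2 and Alpl passed, while Bglap, Ibsp and Sost had no count and Sp7 was at most 0.196 TPM. None of 12 chondrocyte genes passed in every library, but 4 passed 1 TPM in replicate 2. These were Col10a1 (0.722, 4.00 and 1.26 TPM), Sox5 (0.841, 2.70 and 1.04 TPM), Col11a2 (0.185, 4.33 and 0.297 TPM) and Comp (0.131, 1.22 and 0.148 TPM). Of 18 smooth muscle and pericyte genes 8 passed: Acta2, smooth muscle actin, was at 1480, 538 and 1063 TPM and Cald1 at 241, 389 and 190 TPM, but Cnn1 and Myh11, the markers of mature smooth muscle, were under 1 TPM.

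All 25 proliferation genes were at 1 TPM or more in every library, against 47.6% of all protein-coding genes. Cdk4 was at 687, 702 and 671 TPM, Cdk1, the mitotic kinase, at 430, 622 and 486 TPM and Rrm2, which makes deoxynucleotides, at 297, 324 and 231 TPM. Mki67 stood out, with 4.38 and 4.07 TPM in replicates 1 and 3 and 94.0 TPM in replicate 2, on a transcript of 10061 bases. Of 17 inhibitors and checkpoint genes 16 passed, with the p53 targets Cdkn1a at 75.2, 118 and 75.5 TPM and Mdm2 at 54.5, 116 and 52.7 TPM. Cdkn1c had no count.

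Among 6983 genes with at least 2 annotated transcripts and a mean of at least 10 TPM, 6149 (88.1%) had the same dominant transcript in every library, and its median share of the gene's TPM was 71.9%. The share exceeded 90% in 1883 genes and was under 50% in 1568. Transcript levels are estimates that divide reads between overlapping transcripts, so that small shares are uncertain.

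The forms whose sequences are shown above were used unequally. Cxcl12-202, the alpha form, made up 80.1% ± 4.10 of Cxcl12, the beta form Cxcl12-203 15.2% ± 1.38 and the gamma form Cxcl12-201 3.25% ± 1.82. In TPM, the alpha form was at 280, 883 and 641, the beta form at 46.6, 193 and 121 and the gamma form at 9.56, 61.5 and 13.1. The order of the forms was the same in each library. For Kitl, transcripts with the exon of 84 bases held 100%, 96.6% and 95.8% of the TPM of transcripts that span it. The form without it, Kitl-201, was at 0, 0.675 and 0.481 TPM against 8.59, 19.1 and 11.1 TPM for Kitl-202, which has it.

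In Fn1, the EIIIA exon was held by 56.0%, 50.9% and 52.6% of the TPM of transcripts that span it (53.2% ± 2.60), and EIIIB by 26.7%, 28.5% and 28.8% (28.0% ± 1.13). Inclusion of EIIIA exceeded that of EIIIB in every library, by more than the spread between libraries. The annotation has a single spanning transcript with EIIIB, of 8, so its share is that of Fn1-201 alone. For Cdkn2a, the ARF transcript Cdkn2a-202 was at 46.9, 85.8 and 63.5 TPM and the INK4A transcript Cdkn2a-201 at 0, 0.665 and 0.858 TPM. The ARF form thus made up 99.3% ± 0.670 of the gene.

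Other genes on the list were mixed: some leaned to 1 form and others were divided. Vegfa was split between Vegfa-202 (34.0%) and Vegfa-201 (33.6%). The largest transcript took 32.9% of Pdgfa, 39.7% of Fgfr1, 28.0% of Fgfr2, 36.7% of Runx2 and 45.4% of Tgfb2. Of Csf1, Csf1-201 and Csf1-203, which both encode 552 residues, took 52.0% and 20.7%, and Csf1-202, with 257 residues, took 13.1%. The versican transcript Vcan-206 (2394 residues) took 72.7% ± 1.59 against 17.1% ± 2.05 for Vcan-203 (3354 residues). Cd44-203, with 365 residues, made up 62.0% of Cd44 and Tpm1-211 83.6% of the tropomyosin gene Tpm1. In Prrx1, a transcript annotated as non-coding, Prrx1-205, was the largest, with 50.2% ± 2.28. Itga6 had 96.8% of its TPM on a processed transcript of 443 bases, and its level summed over all transcripts was 3.39, 7.81 and 1.73 TPM.

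**Figure D5:**
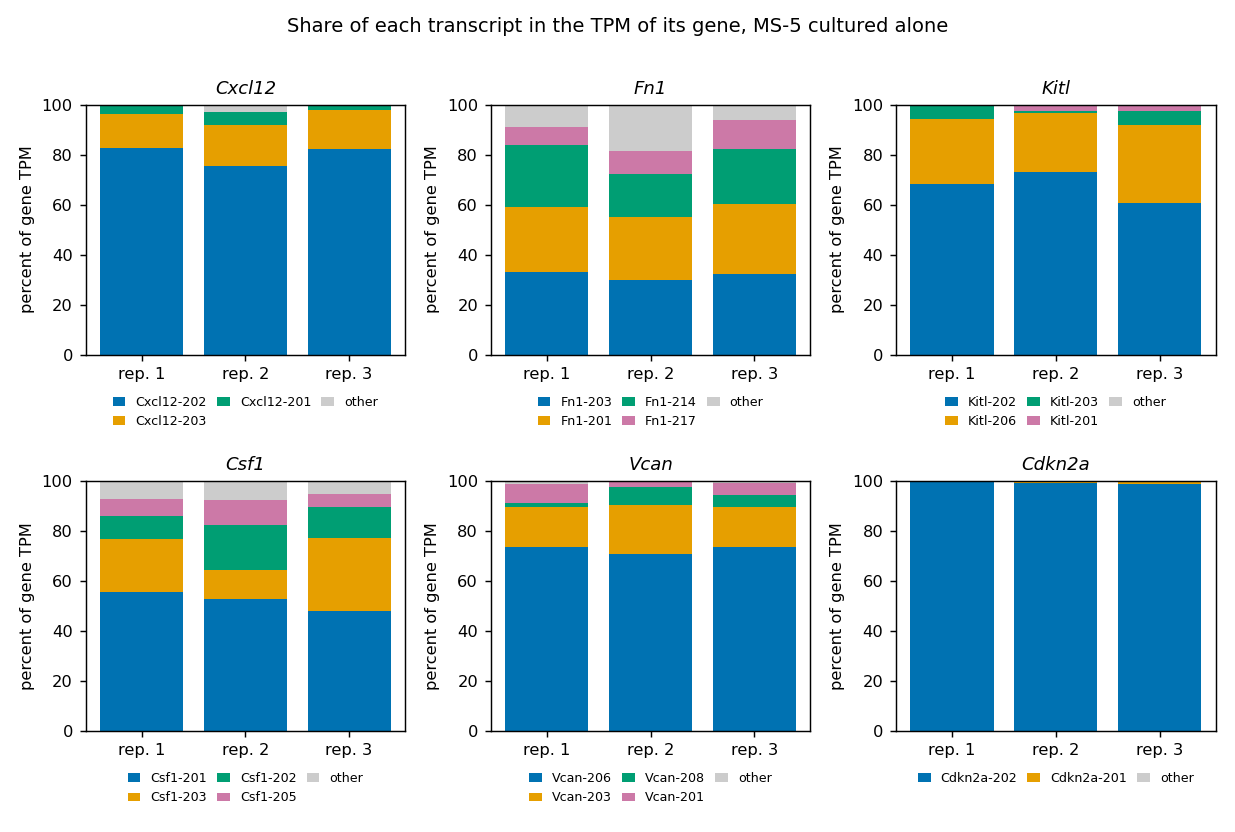
Percent of the TPM of a gene on each of its main transcripts, for 6 genes in each library of MS-5 cultured alone; grey is the rest. Cxcl12-202 fills 80.1% of its gene on average and Cdkn2a-202 99.3%, while Fn1 is divided between several transcripts.

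The dominant transcript changed between libraries in 170 genes at a mean of at least 50 TPM. The widest swings were in Tusc3, Oaz2, Nisch, Cnih4 and Rpl12. Tusc3-201 held 26.8%, 3.61% and 59.5% of its gene, and in the other 4 genes replicates 1 and 3 lay close together with replicate 2 apart, as for Oaz2-201 with 72.3%, 29.8% and 73.0%.

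The common dispersion over 11870 genes corresponded to a biological coefficient of variation of 29.0%, which was 14.5% without replicate 2. Of 7574 genes at a mean of at least 10 TPM, 2013 were over 2-fold apart between their highest and lowest library, and replicate 2 was the highest in 1963 of them. Without replicate 2 the number was 52. Among protein-coding genes at a mean of at least 10 TPM outside the mitochondrial chromosome, the 5 that varied least were Rhog (61.4, 61.1 and 61.4 TPM), Polr3k, Ufm1, Adh5 and S100a4, with SDs of 0.273% to 0.359% of the mean.

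Among the same genes, those farthest above the other libraries in replicate 2 were Mki67, Clec2d (1.29, 35.4 and 2.03 TPM), Nktr (4.14, 68.8 and 3.75 TPM), Egr1 and Sned1 (7.28, 106.5 and 6.999 TPM). Lowest relative to the other libraries was 1810049J17Rik, at 20.28, 0.821 and 15.65 TPM. The next 4 of that order, Prl2c3, Prl2c2, Sprr2h and Sprr1a, were low in replicate 3 too and high in replicate 1 alone. Prl2c2, which encodes proliferin, was at 247, 15.4 and 14.3 TPM and Sprr2h, a cornified envelope gene, at 219.6, 17.0 and 21.7 TPM. Prl2c2 and Prl2c3 belong to the same multigene family, and the division of reads between them is uncertain.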

How the data were processed

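RNA of MS-5 cells cultured alone was sequenced from stranded mRNA libraries, 3 in all. The authors quantified the reads with kallisto (0.43.0 in the submitters' notes) against a cDNA index of mouse build GRCm38. The deposited values are estimated counts, TPM, lengths and effective lengths in bases, 1 of each per transcript. A TPM value is the estimated count over effective length, set to a common library total. The strand setting of the counting is not given in the sources used here, so overlapping and antisense genes are uncertain.

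Of 118489 transcripts, 116728 matched GENCODE M21 and were summed to 35968 genes. The other 1761 were left out. The index holds cDNA, and the mitochondrial chromosome is represented by its 13 protein-coding genes. A gene was taken as expressed at 1 TPM or more in every library. Estimated counts were rounded for edgeR 4.0.16 (R 4.3.3), which gave TMM-normalized CPM and the common dispersion, after a trial on simulated data. No groups were compared, and the only test was a chi-square of each gene's counts in a pair of libraries against sampling noise. Totals of 23978881 to 27182453 counts limit genes under about 1 TPM.

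Members and gene lists were chosen with earlier results of these data known. Genes named in the text are the 25 highest, the stromal markers, up to 6 of the highest members of each role with defining members under 1 TPM, a list of genes with known isoforms, and the genes closest and farthest apart between libraries. Rps2, Rps12 and list members below the highest 6, such as Met, Tlr4 and Pitx1, were named after their values were seen. Some results are not reported here.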

Additional observations from a re-analysis of the deposited data

Results flagged for a closer look

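Transcripts without a match in GENCODE M21 lay outside every value above, and they held 0.509%, 0.562% and 0.488% of the estimated counts in replicates 1, 2 and 3. The limit that a count of 0 allows holds for a single gene and cannot judge these shares, which are sums over 1761 transcripts. There are no control samples for them.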

How the results depend on the processing

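Counts of expressed genes, niche factors, matrix genes, receptors and transcription factors stayed within 1.5 times their value under each alternative but 1, a minimum of 5 TPM, which left 33 niche factors in place of 52. Leaving out 1 library gave 10884 to 11059 expressed genes of all types, against 10837 with all 3. The genes that held 50% of the TPM numbered 155, but 334 when TPM was rescaled over protein-coding genes outside the mitochondrial chromosome and 625 by CPM, which is not corrected for length; with 1 library left out they numbered 118 to 185. Of the 25 highest genes, 14 stayed among the highest 25 by CPM and 24 to 25 with 1 library left out. After the rescaling 11 stayed, which were all that could. The rescaling itself left out the 11 mitochondrial genes and 3 pseudogenes among the 25. The median share of the dominant transcript was 77.6% with protein-coding transcripts only and 83.6% by estimated counts. The mitochondrial share was 9.95% of estimated counts. The biological coefficient of variation was 14.5% to 34.0% with 1 library left out. Genes over 2-fold apart numbered 52 to 1876 with 1 library left out, 969 by CPM and 4456 at a minimum mean of 1 TPM. Restricting to protein-coding transcripts, an alternative chosen after seeing the data, left 51 niche factors, 104 matrix genes, 103 receptors and 159 transcription factors. The cause of these differences was not tested. No paired analysis was possible because the report compares no groups. Depth limits levels under about 1 TPM.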
